A study of Mus musculus with 12 samples.

Results

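Immediate early genes were followed in AtT-20 cells that carry different Pax7 isoforms, a shortened Pax7 or Pax3. The 10 genes are Fos, Fosb, Fosl2, Jun, Junb, Jund, Egr1, Ier2, Dusp1 and Atf3, and they were found by gene name among the 16385 genes of the deposited table, which lists all 10. The AtT-20/D16v-F2 line comes from a mouse pituitary tumor and stands in for corticotropes, the pituitary cells that make ACTH. Per the methods, cells were infected with pLNCX2 retroviruses in which the CMV promoter drives a Pax7 construct, and Geneticin-resistant colonies were pooled. A group made in this way is a mixed population and not a single clone. The vector of the Pax3 cells and of the NoTag group is not described separately. The constructs are described as carrying 3xFlag at both ends, while the label of the NoTag group names only Pax7, with no isoform. Of the other 5 groups, 3 express a full-length Pax7 isoform, called Q-GL-, Q-GL+ or Q+GL+, another expresses Pax3, and the last Pax7-465, a C-terminal deletion that ends at residue 465. Q stands for a glutamine and GL for a glycine-leucine pair that alternative splicing inserts in the paired domain, the DNA-binding domain that Pax7 shares with Pax3. The paper gives Pax3 as Q+GL- itself and labels its deletion mutants as Pax7 Q+GL-. Comparisons of Pax3 or Pax7-465 with the 3 isoforms above therefore also differ in Q, in GL or in both. Each of the 6 groups has 2 libraries of strand-specific, ribosome-depleted RNA, called biological replicates but not said to come from separate infections, so p-values measure only the spread between these libraries. Cells without an introduced factor were not analysed here.

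Immediate early genes are transcribed within minutes of a stimulus, without the need for protein synthesis, when kinase cascades activate factors such as SRF with its ELK partners, and CREB, that already sit at their promoters. Fos and Jun proteins pair through leucine zippers to form AP-1, Egr1 is a zinc finger factor, Atf3 is a stress-responsive member of the ATF/CREB family, Ier2 is a nuclear protein, and Dusp1 removes phosphates from MAP kinases and so closes the loop. In corticotropes, CRH acts through cyclic AMP and protein kinase A, and the pathway to Pomc, the precursor of ACTH, involves immediate early factors such as those of the Nr4a family.

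The stretches upstream of Jun and Dusp1 are shown because these were the members that differed among the groups. They are the RefSeq windows of build GRCm38.p6 before the annotated start, written 5′ to 3′ on the minus strand, at chr4:95052223-95052472 for Jun and chr17:26508520-26508722 for Dusp1, the latter without the bases that the table counts as part of the gene. Capitals mark TGACG, the CREB half-site, on either strand in Dusp1, where it also makes up the full palindrome TGACGTCA, and TGACATCA in Jun.
Jun: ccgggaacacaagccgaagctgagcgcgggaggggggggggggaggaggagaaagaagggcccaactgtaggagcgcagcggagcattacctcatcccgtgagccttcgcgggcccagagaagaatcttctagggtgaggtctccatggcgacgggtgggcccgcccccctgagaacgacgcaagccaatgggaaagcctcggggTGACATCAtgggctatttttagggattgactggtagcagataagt
Dusp1: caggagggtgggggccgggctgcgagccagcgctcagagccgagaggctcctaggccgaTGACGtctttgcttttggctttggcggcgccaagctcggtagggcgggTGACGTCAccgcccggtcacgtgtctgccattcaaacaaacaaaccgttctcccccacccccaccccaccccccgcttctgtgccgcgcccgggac
The match in Jun lies 45 bases before the RefSeq start, and the palindrome in Dusp1 143 bases before it. A window of 250 bases before the start was found for 8 of the 10 members, Egr1 and Ier2 being without an entry. TGACG on either strand was in the windows of 5 of these 8 members, namely Fos, Fosb, Junb, Dusp1 and Atf3, and in 17.8% of 32851 windows of that length. TGACGTCA was found in Dusp1 alone among the members and in 1.55% of all windows, and TGACATCA, which was chosen after the Jun sequence had been read, in Jun alone and in 2.93% of all windows. TGANTCA, the AP-1 motif, was in 0 of the 8 windows and in 6.75% of all. These are matches of letters, and no binding was measured for them here.

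Levels are FPKM, a fragment count divided by gene length and by the library total, as the authors deposited them, so that levels of different genes can be set side by side. Differences are on the scale log2(FPKM + 1), where the added 1 makes the change of low genes look smaller. The table holds no read counts and the depth is unknown, so the spread between the 2 libraries of a group is the only source of error. For the tests, limma pooled this spread over the 6 groups and moderated it across genes. Summed FPKM lay between 413794 and 483161 in the 10 libraries other than NoTag and between 627305 and 666609 in NoTag, and 733 genes are listed at 0 in all 10 libraries while above 0 in both NoTag libraries. For that reason NoTag is described apart. The introduced Pax7 was at 93.9 to 112.7 FPKM in the Pax7 cells other than NoTag, at 156.6 to 158.7 FPKM in NoTag and at 0.159 to 0.161 FPKM in Pax3 cells, as the labels state. Of the corticotrope markers, Pomc was at 5112 to 9158 FPKM and Tbx19, which encodes Tpit, at 115.9 to 133.9 FPKM outside NoTag, but Crhr1, the CRH receptor, was at only 0.130 to 0.392 FPKM. Of the genes that mark other pituitary cells, 2 of 8 are in the table. Lhb is at 0 in all 12 libraries, while Ghrhr, at 0 outside NoTag and 0.231 to 0.291 FPKM in NoTag, is among the genes so listed, and its level outside NoTag is not known. Of the stroma and blood markers, 3 of 5 are in the table, Col1a1 at 0.414 to 1.07 and Pecam1 at 0.0175 to 0.150 FPKM outside NoTag, with Pdgfrb listed like Ghrhr. In such bulk samples, fewer cells that express a gene and less RNA per cell cannot be told apart.

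**Figure D1:**
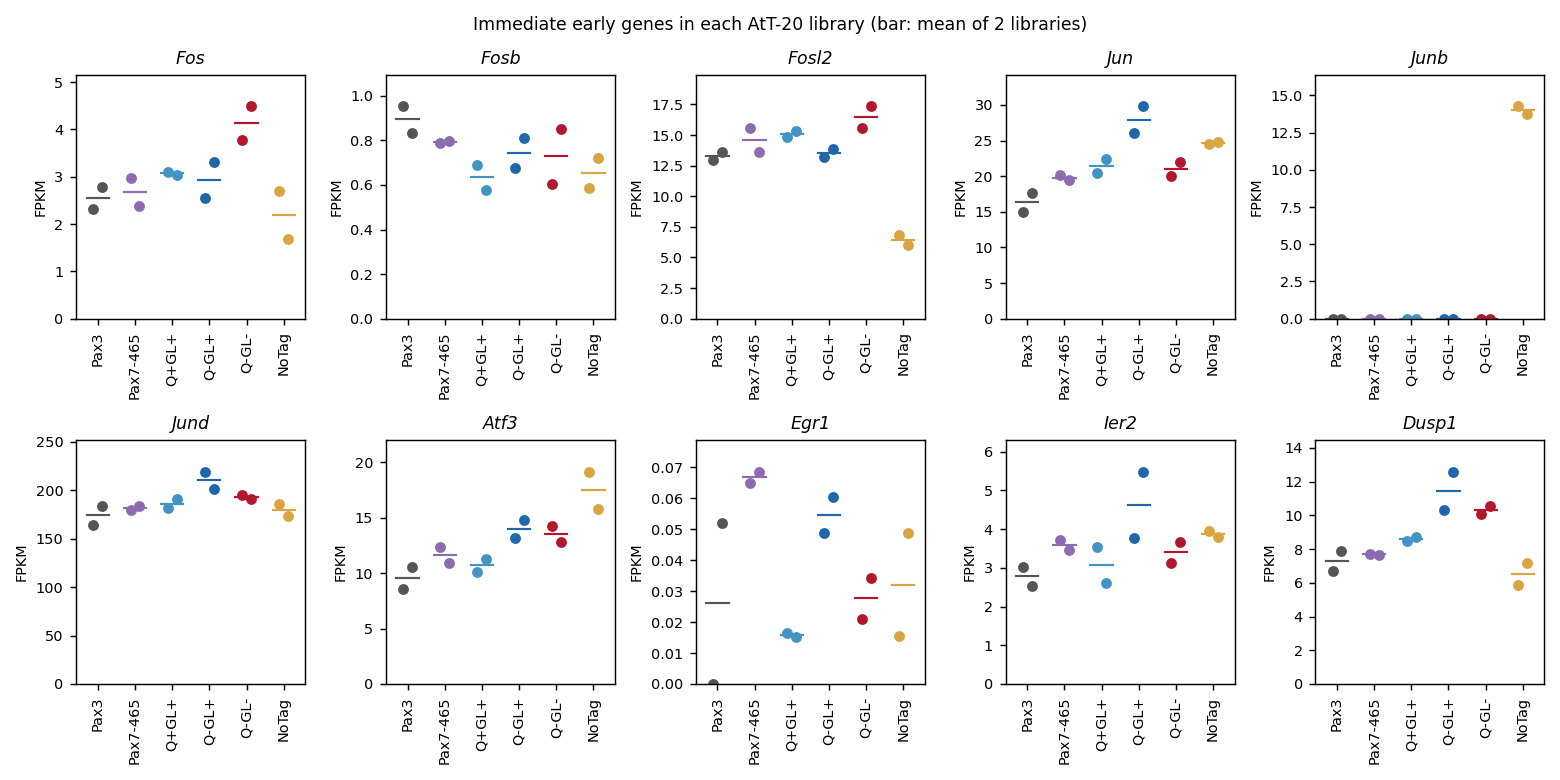
Level of each of the 10 immediate early genes in FPKM (vertical axes, linear, from 0, with a scale of its own per gene) in the 2 libraries of each group (points) with their mean (bars). Jun and Dusp1 were highest in Q-GL+ cells among the groups other than NoTag, Fosl2 lay at 6.03 and 6.81 FPKM in NoTag against at least 12.9 FPKM elsewhere, and Junb is listed at 0 in all libraries except those of NoTag.

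The members spanned a wide range of levels. Jund was the most abundant, with a lowest value of 163.9, a median of 187.2 and a highest value of 219.1 FPKM over the 10 libraries other than NoTag. Jun, Fosl2, Atf3 and Dusp1 formed a middle tier, with medians of 20.3, 14.4, 11.9 and 8.62 FPKM. Ier2 and Fos were low, at medians of 3.49 and 3.01 FPKM, and Fosb and Egr1 lay below 1 FPKM in all 12 libraries. The order in these cultures was led by JunD, with the classical serum-induced genes Fos, Fosb and Egr1 near the bottom. Of the 10 members, 8 reached the level set for testing, at least 1 FPKM in at least 2 libraries, which 76.8% of all genes reached. Junb reached it only through NoTag, which leaves 7 members with a comparison among the other groups.

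Among the Fos proteins, Fos itself was at 2.31 and 2.79 FPKM in Pax3 cells, 2.98 and 2.38 in Pax7-465, 3.10 and 3.04 in Q+GL+, 2.55 and 3.31 in Q-GL+, and 3.77 and 4.49 in Q-GL- cells. Both Q-GL- libraries lay above all 10 libraries of the other groups, and the remaining groups overlapped. The log2 difference of Q-GL- over Pax3 was 0.53 ± 0.16 (SE), with an adjusted p of 0.0954 in limma, and did not pass. Fos lies on chromosome 12 at 85473890 to 85477273 (GRCm38, plus strand, 4 exons).

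Fosl2, which encodes the Fos relative FRA2, was at 12.9 and 13.6 FPKM in Pax3 cells, 15.6 and 13.6 in Pax7-465, 14.8 and 15.3 in Q+GL+, 13.2 and 13.9 in Q-GL+ and 15.6 and 17.3 in Q-GL- cells. Its group means spanned only 0.29 on the log2 scale, and it did not pass in any comparison of these 5 groups. Fosb ranged from 0.579 to 0.953 FPKM over the same libraries and was not tested.

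Jun, whose product is the main partner of Fos in AP-1, showed the largest span of group means of the 7 members. It was at 15.0 and 17.7 FPKM in Pax3 cells, 20.1 and 19.4 in Pax7-465, 20.5 and 22.4 in Q+GL+, 20.1 and 22.0 in Q-GL-, and 26.1 and 29.8 in Q-GL+ cells. Both Q-GL+ libraries lay above all others, the NoTag libraries at 24.5 and 24.8 FPKM included, and both Pax3 libraries lay below all others. In between, Q+GL+, Q-GL- and Pax7-465 could not be ordered beyond their spread. Jun is a gene of a single exon on chromosome 4 at 95049034 to 95052222 (minus strand), and an antisense gene, Junos, overlaps 689 of its bases at 0.300 to 0.617 FPKM in the libraries other than NoTag. The strand setting of the counting is not given in the sources used here, so the part of antisense reads was not tested.

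Jund, the most abundant AP-1 transcript, was at 163.9 and 183.8 FPKM in Pax3 cells, 179.6 and 183.3 in Pax7-465, 181.1 and 190.8 in Q+GL+, 195.0 and 190.5 in Q-GL- and 219.1 and 201.1 in Q-GL+ cells. Q-GL+ was again highest, but the log2 span of the group means was only 0.27 and did not pass. An antisense gene of unnamed function, Gm11175, overlaps 919 bases of its single exon at 10.5 to 14.9 FPKM.

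Atf3 was at 8.59 and 10.6 FPKM in Pax3 cells, 12.4 and 10.9 in Pax7-465, 10.1 and 11.3 in Q+GL+, 13.2 and 14.8 in Q-GL+ and 14.2 and 12.8 in Q-GL- cells. The Q-GL+ and Q-GL- libraries lay above those of the other 3 groups. Against Pax3, Atf3 differed by 0.51 ± 0.12 (SE) in Q-GL+ and by 0.46 ± 0.12 in Q-GL- cells on the log2 scale, with adjusted p of 0.0957 and 0.0533 in limma, and neither passed.

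Egr1 was close to 0 throughout, with a highest value of 0.0685 FPKM, in a Pax7-465 library, and a value of 0 in a Pax3 library. Ier2 was at 3.02 and 2.53 FPKM in Pax3 cells, 3.72 and 3.45 in Pax7-465, 3.53 and 2.60 in Q+GL+, 3.13 and 3.67 in Q-GL- and 3.78 and 5.48 in Q-GL+ cells. The high Q-GL+ mean of Ier2 rested largely on replicate 2, and the gene did not pass.

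Dusp1, the MAP kinase phosphatase of the set, was at 6.72 and 7.87 FPKM in Pax3 cells, 7.71 and 7.68 in Pax7-465, 8.51 and 8.73 in Q+GL+, 10.1 and 10.6 in Q-GL-, and 10.3 and 12.6 in Q-GL+ cells. The Q-GL+ and Q-GL- libraries lay above all others, those of Q+GL+ came next, and those of Pax3 and Pax7-465 overlapped. Dusp1 lies on chromosome 17 at 26505590 to 26508519 (minus strand).

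A gene is called where its Benjamini-Hochberg adjusted p, over the 12578 genes tested, is under 0.05. Over the 5 groups other than NoTag, 2 of the 7 members, Jun and Dusp1, were called in a test of any difference among the groups (limma's moderated F test), where 4.78% of all genes did. The adjusted p was 0.00709 for Jun, with group means that spanned 0.74 on the log2 scale, and 0.0301 for Dusp1, with a span of 0.58. At an unadjusted p under 0.05 there were 6 of 7. Atf3 had an adjusted p of 0.0867, and Fos, Fosl2, Ier2 and Jund had 0.251, 0.256, 0.207 and 0.274. The median span was 0.53 for the 7 members and 0.23 for all genes tested, a description only, since libraries are shared and low genes spread more. The call of Jun held when each library was left out in turn and under all 9 alternative settings. That of Dusp1 was lost without Pax3 replicate 1, either Pax7-465 library, Q-GL+ replicate 2 or either Q-GL- library, with adjusted p of up to 0.102.

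Comparisons of 2 groups at a time locate these differences. Q-GL+ cells against Pax3 cells gave 2 of 7 members called, both higher, where 0.708% of all genes were called and 0.501% were higher. Under quantile normalization 0.93% of all genes were higher and 0.7% lower, against 0.501% and 0.207% here. Jun was higher by 0.74 ± 0.09 (SE) on the log2 scale (adjusted p = 0.00562, limma) and Dusp1 by 0.58 ± 0.11 (adjusted p = 0.0388). The median difference was 0.51 over the 7 members and 0.01 over all genes. Without Pax3 replicate 1 or without Q-GL+ replicate 2, the Jun difference was 0.63 or 0.65 and had an adjusted p of 0.053 or 0.0615. The Dusp1 call was lost in 8 of 12 fits with a library left out, among them those without Pax3 replicate 1 or either Q-GL+ library, and in 4 of 10 other settings, with a difference between 0.45 and 0.72 throughout. Of the 2 melanotrope markers tested, Oacyl was also higher here, by 0.86 (adjusted p = 0.00296), while Pcsk2 was at -0.18 (adjusted p = 0.445), and their part in the differences of Jun and Dusp1 was not tested.

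**Figure D2:**
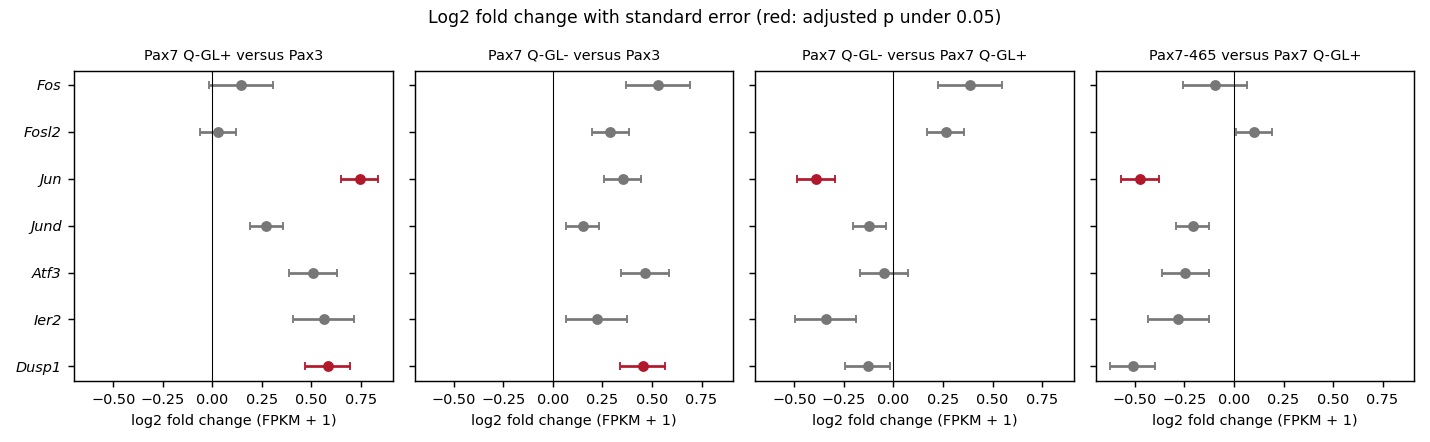
Log2 fold change (horizontal axis, on the scale of FPKM + 1) with its standard error for the 7 tested members in the 4 comparisons in which a member was called; red points have an adjusted p under 0.05 in limma. Jun lies at 0.74 in Q-GL+ over Pax3 and at -0.39 in Q-GL- over Q-GL+, and Dusp1 lies at 0.58 and 0.45 over Pax3 in these 2 isoform groups.

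Q-GL- cells against Pax3 cells gave 1 of 7 members called, Dusp1, higher by 0.45 ± 0.11 (SE, adjusted p = 0.0448, limma), where 4.33% of all genes were called and 3.62% were higher. Under quantile normalization 4.22% were higher and 2.86% lower, against 3.62% and 0.716% here, and Dusp1 was not called. All 7 members had a positive difference, with a median of 0.35 against 0.04 over all genes, and 5 of 7 had an unadjusted p under 0.05. Jun differed by 0.35 ± 0.09, with an adjusted p of 0.0602. The Dusp1 call was lost in 5 of 10 settings, quantile normalization and median centring among them, and in 7 of 12 fits with a library left out, those without Pax3 replicate 1 or either Q-GL- library included. In the same comparison Pcsk2 and Oacyl, melanotrope markers, were both called higher, their sum being 46.9 to 47.2 FPKM in Q-GL-, 18.9 to 20.96 in Pax3, 19.6 to 20.6 in Q-GL+, 14.3 to 14.8 in Q+GL+ and 27.9 to 29.6 FPKM in Pax7-465 cells, and of the 6 corticotrope markers tested Pomc and Pcsk1 were higher. The summed corticotrope markers, most of which is Pomc, were at 9172 to 9719 FPKM in Q-GL- and at 5515 to 6874 FPKM in Pax3 cells. Over the 6 tested, the median log2 difference was -0.096, so the sum speaks for Pomc and not for the markers as a set. The part of the marker differences in that of Dusp1 was not tested.

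Between the isoforms that differ by GL alone, Q-GL- and Q-GL+, 1 of 7 members was called, where 4.17% of all genes were called and 1.11% were lower. Under quantile normalization 4.44% were higher and 2.68% lower, against 3.06% and 1.11% here. In Q-GL- cells Jun was lower, with a log2 difference of -0.39 ± 0.09 (SE, adjusted p = 0.0394, limma). Fos went the other way, at 0.39 ± 0.16, as did Fosl2 at 0.26 ± 0.09, with adjusted p of 0.222 and 0.142. Dusp1 differed by -0.13 ± 0.11 and Atf3 by -0.05 ± 0.12, with adjusted p of 0.592 and 0.884. The Jun call was lost in 4 of 10 settings and without any single library of Q-GL-, Q-GL+ or NoTag, with differences between -0.48 and -0.30 and adjusted p of up to 0.298. In Pax7-465 cells Jun was also lower than in Q-GL+, by a log2 difference of -0.48 ± 0.09 (adjusted p = 0.0431), the 1 member called where 0.795% of all genes were called and 0.294% were lower. That call was kept with a library left out only where the library was of Pax3, with adjusted p of up to 0.356. Dusp1 in this comparison was at -0.51 ± 0.11, with an adjusted p of 0.0681. All 3 comparisons in which Jun was called share the Q-GL+ libraries, and are not independent of each other.

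In the other 6 comparisons limma called 0 of 7 members. The isoforms that differ by Q alone, Q+GL+ and Q-GL+, came closest, with 4 of 7 at an unadjusted p under 0.05 and a median of -0.36 over the members against 0.01 over all genes, where 0.962% of all genes were called. Jun was at -0.37 ± 0.09 there, with an adjusted p of 0.104. In Q-GL- against Q+GL+ cells 1 of 7 had an unadjusted p under 0.05, where 2.15% of all genes were called. For Q+GL+ against Pax3 it was 1 of 7 and 0.262%, the 1 being Jun at 0.38 ± 0.09. Pax7-465 gave 0 of 7 at an unadjusted p under 0.05 against Q+GL+ (1.33% of all genes called), 2 of 7 against Q-GL- (0.445%), and 2 of 7 against Pax3 (1.16%).

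The 2 libraries of a group did not always lie together in these genes. In Q-GL+, 6 of 7 members were higher in replicate 2, with a median log2 difference of 0.18 against -0.07 over all genes, and in Pax3 likewise 6 of 7, with 0.19 against 0.11. In Pax7-465, 1 of 7 was higher in replicate 2, with a median of -0.09 against 0.06. Replicate 2 of Q-GL+ held the highest value of Jun, Dusp1 and Ier2 of all 12 libraries. The part of such shared shifts in the differences between groups was not tested.

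The genes whose profile over the 10 libraries other than NoTag lay nearest to that of Jun were Bpgm, Krt7 and Epb41l5, at distances of 0.306, 0.335 and 0.359 (Euclidean, on centred log2 values) where the profile of Jun itself lay 0.792 from a flat one. Nearness was chosen on these libraries and describes them only.

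NoTag cells differed from the mean of the other 5 groups in 5 of the 7 members, 2 higher and 3 lower, where 56.3% of all genes were called, 45.6% higher and 10.7% lower. Under median centring the split was 1 and 4 for the members, and 25.8% and 25.4% for all genes. The median of all genes was itself shifted by 0.18 on the log2 scale, so each difference is also given relative to that shift. Fosl2 stood out, at 6.81 and 6.03 FPKM in NoTag against 12.9 to 17.3 FPKM elsewhere, a log2 difference of -1.07 ± 0.07 (SE, adjusted p = 1.71e-07, limma), or -1.25 relative to the shift. Atf3 was higher, at 19.2 and 15.8 FPKM against 8.59 to 14.8, by 0.53 ± 0.09 (adjusted p = 0.000487), or 0.35 relative. The groups did not overlap in either gene, and both calls held under all settings and with any library left out.

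Dusp1 was at 5.90 and 7.18 FPKM in NoTag, within the range of Pax3 cells at its upper value, and differed by -0.40 ± 0.09 (adjusted p = 0.00199, limma), or -0.59 relative to the shift. Without NoTag replicate 1 the difference was -0.28, with an adjusted p of 0.0677. Fos, at 2.69 and 1.69 FPKM, differed by -0.35 ± 0.13 (adjusted p = 0.0298), or -0.54 relative, and without NoTag replicate 2 by -0.13, with an adjusted p of 0.513. Jun was at 24.5 and 24.8 FPKM and higher by 0.22 ± 0.07 (adjusted p = 0.0207), but only by 0.04 relative to the shift, and the call was lost under quantile normalization, under median centring and without either NoTag library. Ier2, at 3.95 and 3.80 FPKM, was not called, with an adjusted p of 0.343. Jund, at 185.3 and 172.9 FPKM, was at -0.07 ± 0.06 with an adjusted p of 0.353, but was called lower under median centring, at -0.26, and quantile normalization, at -0.33. Corticotrope markers summed to 11047 to 11157 FPKM in NoTag, most of which was Pomc, at 10547 to 10680 FPKM. The melanotrope markers Pcsk2 and Oacyl summed to 71.6 to 72.5 FPKM, and both sums lay above those of all other groups. Neither sum is given relative to the shift of all genes, and the part of that shift in them was not tested. Of the 6 corticotrope markers tested, 3 were called in NoTag, 2 higher and 1 lower. Their median log2 difference was 0.069, below the shift of all genes. The corticotrope sum therefore speaks for Pomc and not for the markers as a set. The part of the marker differences in those of the members was not tested.

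**Figure D3:**
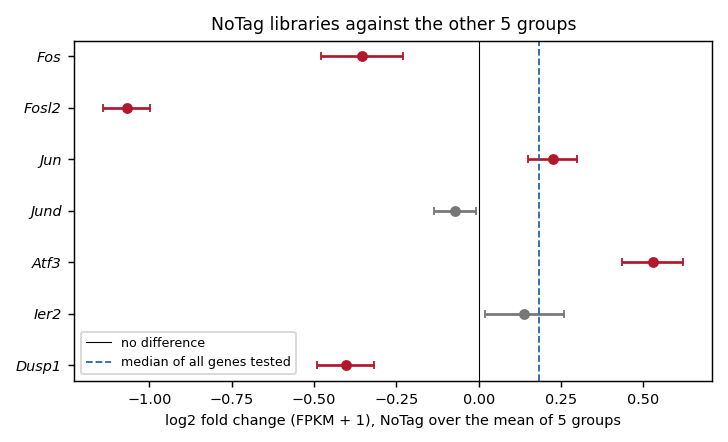
Log2 fold change (horizontal axis, on the scale of FPKM + 1) of NoTag over the mean of the other 5 groups for 7 members, with standard errors; red points have an adjusted p under 0.05 in limma and the dashed line is the median of all genes tested, 0.18. Fosl2 lies at -1.07 and Atf3 at 0.53, while Jun, at 0.22, lies on the dashed line within its error.

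Junb, an AP-1 subunit that is usually induced together with Fos, is listed at 0 in all 10 libraries other than NoTag and at 14.3 and 13.7 FPKM in NoTag. Such a pattern was set aside as a matter of quantification, no fold is given, and its cause was not tested. The same pattern, 0 in 10 libraries and above 0 in both of NoTag, was shown by 733 of 16385 genes (4.47%), and by 41 of the 12578 genes tested (0.326%), and by mean level in NoTag Junb ranked 13 of the 733. The set includes genes chosen after their values were seen as examples of broadly used functions, Rbm42, an RNA-binding protein, at 58.5 to 60.7 FPKM in NoTag, and Rnasek, at 37.1 to 40.4 FPKM. Of the 41 genes, 56.1% overlap another gene of the table on the same strand, against 8.57% of all genes tested. Junb, on chromosome 8 at 84974484 to 84976542 (minus strand), overlaps none on its own strand but 351 bases of Prdx2 on the other, a peroxiredoxin gene at 87.6 to 117.1 FPKM in the 10 libraries and 153.1 to 159.8 FPKM in NoTag. Overlap on the other strand was found for 22.0% of the 41 genes and 27.0% of all. The level of Junb in the 10 libraries is therefore not known from this table.

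Other genes of the response were taken from lists by role. Among other immediate early effectors, 5 of 17 tested differed over the 5 groups, where 4.78% of all genes did, with a median span of 0.38 against 0.23 over all genes. These were Btg2, Gadd45b, Rhob, Trib1 and Errfi1. The call of Btg2 was lost in 2 of 9 settings and 9 of 12 fits with a library left out (adjusted p of up to 0.13), namely without Pax3 replicate 1 or any single library of NoTag, Q+GL+, Q-GL+ or Q-GL-. That of Rhob was lost in 2 settings and without any single library of NoTag, Q-GL+ or Q-GL- (up to 0.201). That of Trib1 was lost without either Q-GL+ library or Q-GL- replicate 1 (up to 0.155), that of Errfi1 without either Q-GL- library (up to 0.0745) and that of Gadd45b without Q-GL- replicate 2 (0.0524). Among other AP-1 and partner factors it was 1 of 7 (Maff), among other immediate early transcription factors 1 of 12 (Klf4), and among MAP kinase phosphatases and Sprouty inhibitors 1 of 8 (Dusp4), with median spans of 0.44, 0.32 and 0.32. Dusp4 was called with any library left out, while Maff was lost without Pax3 replicate 1 or either Q-GL- library (up to 0.0844) and Klf4 without Q-GL+ replicate 2 (0.0896). Of the kinases upstream, limma called 0 of 15 over the 5 groups, with 4 at an unadjusted p under 0.05. Of the factors that drive these promoters, such as Srf and Creb1, it called 0 of 13, with 1. The median spans of these 2 lists were 0.23 and 0.18. Where 2 of these groups were compared, 1 of the 15 kinases was called, Prkacb, higher in Q-GL- than in Pax3. In that comparison 4.33% of all genes were called and 3.62% were higher. No kinase was called in the other comparisons of these groups. Prkacb was at 57.1 and 58.8 FPKM in Q-GL- and at 44.9 and 47.1 FPKM in Pax3. Its log2 difference lay between 0.25 and 0.36 over the fits run. The call was lost in 3 of 10 settings and in 7 of 12 fits with a library left out.

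Klf4, a zinc finger factor of the same early response, was at 24.0 and 25.3 FPKM in Q-GL+ and at 16.4 to 18.8 FPKM in the other 4 groups, so that Q-GL+ stood above all, as it did for Jun. Over Pax3 cells, Q-GL+ cells had more Klf4 by 0.51 ± 0.08 (SE, adjusted p = 0.0141, limma), and the differences from Q-GL+ were -0.46 for Q-GL- (adjusted p = 0.00594), -0.54 for Q+GL+ (adjusted p = 0.00727) and -0.40 for Pax7-465 (adjusted p = 0.042). Trib1, a pseudokinase, was at 9.62 and 9.54 FPKM in Q-GL+ and at 5.91 to 7.40 FPKM in the other 4 groups. Its log2 difference was -0.48 ± 0.10 in Q-GL- over Q-GL+ (adjusted p = 0.0177) and 0.58 ± 0.10 in Q-GL+ over Pax3 cells (adjusted p = 0.0216). Rhob, a small GTPase, was likewise highest in Q-GL+, at 112.5 and 107.2 FPKM in Q-GL+ against 77.6 to 92.5 FPKM in the other 4 groups, with differences of -0.37 for Q-GL- and -0.41 for Pax7-465 from Q-GL+ (adjusted p = 0.02 and 0.0344). Egr2, a relative of Egr1 that was expressed in these cells, at 24.7 to 37.2 FPKM, differed by -0.44 in Q-GL- over Q-GL+ cells (adjusted p = 0.027). Over the 5 groups Egr2 was not called (adjusted p = 0.128, moderated F test). For each of these genes, the calls in comparisons with Q-GL+ were lost when either Q-GL+ library was left out, with the exception that Klf4 in Q-GL- against Q-GL+ was kept without replicate 1. All were also lost without replicate 1 of the other group compared. Without replicate 2 of that group all were lost too, except Klf4 in Q-GL- against Q-GL+ and Rhob in Q-GL+ over Pax3. In Pax7-465 against Q-GL+, the Klf4 call was lost in 5 of 10 settings and the Rhob call in 3 of 10. The Rhob call in Q-GL+ over Pax3 was lost in 5 of 10 settings and in 10 of 12 fits with a library left out.

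**Figure D4:**
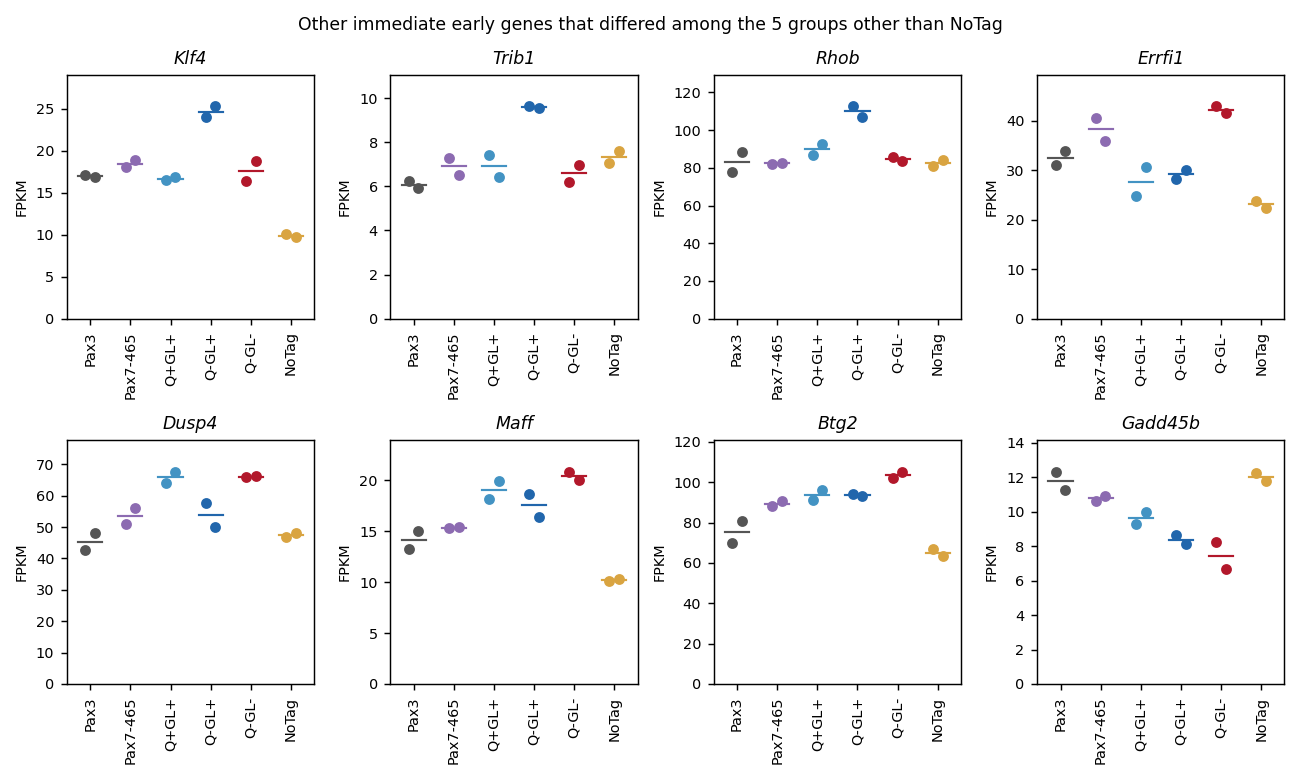
Level in FPKM (vertical axes, linear, from 0) of the 8 other immediate early genes that differed among the 5 groups other than NoTag, in the 2 libraries of each group (points) with their mean (bars). Klf4, Trib1 and Rhob are highest in Q-GL+, while Errfi1 is high in Q-GL- and Pax7-465, Dusp4 and Maff in Q-GL- and Q+GL+, and Gadd45b is lowest in Q-GL-. Btg2 is highest in Q-GL- and, among the groups other than NoTag, lowest in Pax3.

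Other genes were called in Q-GL- cells without being highest in Q-GL+. Between Q-GL- and Q-GL+, 6 of 17 effectors were called, where 4.17% of all genes were, and 4 of them were higher in Q-GL- and 2, Trib1 and Rhob, lower. All 6 calls were lost without any single library of Q-GL- or Q-GL+. Errfi1, a feedback inhibitor of the EGF receptor, was at 42.9 and 41.5 FPKM in Q-GL- and at 28.3 and 30.2 FPKM in Q-GL+ cells, a difference of 0.52 ± 0.10 (SE, adjusted p = 0.0138, limma), and the difference from Q+GL+ cells was 0.60 (adjusted p = 0.00895). In Pax7-465 cells Errfi1 was at 40.6 and 36.0 FPKM, close to Q-GL-. The first call was lost without any single library of the 2 groups, with adjusted p of up to 0.103, and the second without Q+GL+ replicate 1 or either Q-GL- library, with up to 0.101. Errfi1 was also called higher in Pax7-465 than in Q+GL+ cells, by 0.31 to 0.61 over the fits run. That call was lost in 7 of 10 settings and in 9 of 12 fits with a library left out. Against Pax3 cells, Q-GL- cells had more Dusp4, a nuclear MAP kinase phosphatase related to Dusp1, with 65.9 and 66.2 against 42.7 and 48.1 FPKM (0.53 ± 0.09, adjusted p = 0.00422), a call that held under all 10 settings and with any library left out. Maff, a small Maf protein, differed by 0.50 (adjusted p = 0.00633) and Btg2, an antiproliferative gene, by 0.46 (adjusted p = 0.00563), while Gadd45b, a stress sensor, was lower, with -0.60 (adjusted p = 0.0039), at 8.22 and 6.67 against 12.3 and 11.3 FPKM. Of the 17 effectors tested, 3 were called in this comparison, 2 higher and 1 lower, where 4.33% of all genes were called and 3.62% were higher. Beside Btg2 and Gadd45b this was Sik1, higher by 0.27 to 0.34 over the fits run. The Sik1 call was lost in 5 of 10 settings and in 10 of 12 fits with a library left out. The Maff call was lost without Pax3 replicate 1 or Q-GL- replicate 1 (adjusted p of up to 0.0648), and those of Btg2 and Gadd45b without Q-GL- replicate 2 (0.0671 and 0.0553). Dusp4 was at a like level in Q+GL+ cells, at 64.0 and 67.7 FPKM, and exceeded its level in Pax3 there by 0.53 (adjusted p = 0.0392), a call that was lost in 6 of 10 settings and in 7 of 12 fits with a library left out, namely without Pax3 replicate 1 or any single library of NoTag, Q+GL+ or Q-GL-. Maff in Q+GL+ cells, at 18.2 and 19.9 FPKM, also lay near its level in Q-GL-, at 20.8 and 20.03 FPKM. Btg2 was at 102.4 and 105.3 FPKM in Q-GL- and at 70.0 and 80.6 FPKM in Pax3. In Pax7-465, Q+GL+ and Q-GL+ cells Btg2 lay at 88.1 to 96.2 FPKM, also above Pax3. In NoTag against the mean of the other groups, where 56.3% of all genes were called, 12 of 17 effectors (5 higher, 7 lower), 6 of 12 other transcription factors (3 and 3), 3 of 7 AP-1 partners (1 and 2), 4 of 8 phosphatases and Sprouty inhibitors (2 and 2), 10 of 15 kinases (7 and 3) and 4 of 13 promoter factors (2 and 2) were called.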

How the data were processed

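RNA-Seq of 12 libraries of AtT-20 cells, 2 in each of 6 groups taken from the labels, was analysed. Per the labels and methods, the authors trimmed reads with Trimmomatic, aligned them with TopHat2 to Ensembl GRCm38 (mm10) and quantified genes with HOMER, and the values they deposited are FPKM. The unit was taken from the values and the table's description. The versions of these tools for RNA-Seq, gene filters and read counts are not given in the sources used here, so depth is unknown and no count model was run. The table has 4 more per-sample columns, which were left out.

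On log2(FPKM + 1), limma-trend (robust) was fitted once to 12578 of 16385 genes, those that reached 1 FPKM in 2 or more libraries, with a coefficient for each group. Benjamini-Hochberg adjustment ran over all these genes within each test, at 0.05. The tests were the moderated F test over 5 groups, 10 pairwise comparisons and NoTag against the mean of the others. The members and lists were chosen with earlier results of these data known. Named beside the members are the list genes called over the 5 groups and up to 3 called genes per list and comparison without NoTag, those with the smallest adjusted p. The 3 profiles nearest to that of the leading member, Pax7, and markers are also named. Gene positions come from the table, with its 0-based starts shifted by 1, exons and overlaps from GENCODE (GRCm38), and upstream windows from RefSeq (GRCm38.p6). Alternatives were quantile normalization, median centring, other filters and pseudocount, other variance models and sample sets, a replicate block and each library left out. The fit was tested on simulated data. Software was R 4.3.3 (limma 3.58.1, statmod 1.5.0) and Python 3.11.15 (matplotlib 3.10.9, pandas 2.3.3, numpy 2.4.6).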

Additional observations from a re-analysis of the deposited data

How the results depend on the processing

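With only 2 libraries per group and no read counts, small differences are poorly resolved, and most calls of single members were near the threshold. Of the counts of members called, main values being 2 over the 5 groups, 1 for Q-GL- against Q-GL+, 1 for Q-GL- against Pax3, 2 for Q-GL+ against Pax3, 1 for Pax7-465 against Q-GL+ and 0 for Q+GL+ against Q-GL+, the following moved by more than 1.5 times, and the cause was not tested. Quantile normalization gave 2 for Q-GL- against Q-GL+, 1 for Q+GL+ against Q-GL+, 0 for Q-GL- against Pax3 and 3 for Pax7-465 against Q-GL+, and also, within 1.5 times, 3 over the 5 groups and 3 for Q-GL+ against Pax3. Median centring gave 0 for Q-GL- against Pax3 and 1 for Q-GL+ against Pax3. No filter gave 1 over the 5 groups, 0 for Q-GL- against Q-GL+, 0 for Q-GL- against Pax3, 1 for Q-GL+ against Pax3 and 0 for Pax7-465 against Q-GL+. A filter of 5 FPKM gave 2 for Q-GL- against Pax3. Without trend, and likewise without the robust option, the counts were 0 for Q-GL- against Q-GL+, 0 for Q-GL- against Pax3, 1 for Q-GL+ against Pax3 and 0 for Pax7-465 against Q-GL+. Without the NoTag libraries they were 0 for Q-GL- against Q-GL+ and 0 for Pax7-465 against Q-GL+. A fit of only the groups compared gave 3 for Q-GL- against Pax3 and, within 1.5 times, 3 for Q-GL+ against Pax3. With each library left out in turn, where the remaining library of the group is assumed to vary like the other groups, counts ranged from 1 to 2 over the 5 groups, 0 to 1 for Q-GL- against Q-GL+, 0 to 3 for Q-GL- against Pax3, 0 to 2 for Q-GL+ against Pax3, 0 to 1 for Pax7-465 against Q-GL+, 3 to 5 for NoTag, and 0 to 0 in the other comparisons. None of the called members, or of the list genes called among the 5 groups other than NoTag, changed sign under a setting run.

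Replicate numbers are shared between groups, but the correlation of same-numbered deviations lay between -0.16 and 0.17 over 15 pairs of groups, above 0.1 in 2, and in 3 of 6 groups a library correlated best with its own number, so the numbers were not taken as a pairing. With the replicate block, the count was 2 for Q-GL- against Pax3 and 2 for Pax7-465 against Q-GL+, and within 1.5 times of the main count elsewhere.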
